A study of Homo sapiens with 26 samples.

Results

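Human chromosome 19 carries an unusually dense set of zinc finger genes, and 102 of them, named ZNF followed by a digit, were examined for their RNA levels in HCT116, a human colorectal cancer cell line. They are the ZNF genes that stood in at least 1 of 3 expression tables, out of 267 such gene names on the chromosome in the assembled annotation and 6035 gene symbols listed in any table. Of the 102, 3 have symbols that mark a pseudogene (ZNF321P, ZNF702P and ZNF724P) and 1 is a readthrough transcript (ZNF816-ZNF321P). Being listed required a difference in value, so the members were chosen in part by their fold changes, and the 165 other ZNF genes of the chromosome may have been unchanged, filtered out or not tested.

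The RNA libraries comprised 3 from cells with a hairpin against ZBTB24 (shZBTB24) and 3 from cells with a non-targeting hairpin (shNT), both delivered by lentivirus and selected with puromycin. A further 2 came from lines with added FLAG-tagged ZBTB24 (lines 5 and 11) and 2 from lines with the tag alone, each line grown from a single cell, so that differences between clones stay with these groups. The last 2 were 1 DNMT3B knockout library and 1 wild-type library, and the wild-type cells carried neither tag nor hairpin. FLAG ChIP-seq of 3 FLAG-ZBTB24, 2 FLAG-DNMT3B and 2 tag-alone lines gave a list of peaks for each of the tagged factors. The labels do not give separate cultures for the hairpin replicates, so the p-values of the knockdown measure only the spread between those libraries, which may be technical. Each table holds 1 pooled FPKM value per group (fragments scaled by transcript length and library size), so no error between libraries can be given and the depth behind each value is unknown.

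Most chromosome 19 ZNF genes encode KRAB zinc finger proteins. Arrays of C2H2 fingers bind DNA, often inside transposable elements, and the KRAB domain recruits TRIM28 and through it the histone methyltransferase SETDB1, HP1 proteins and DNA methylation. The genes arose by tandem duplication and lie in clusters of close relatives, whose bodies carry repressive chromatin in many cell types. ZBTB24 is a zinc finger transcription factor and DNMT3B a de novo DNA methyltransferase, and mutations of either cause ICF syndrome (immunodeficiency, centromeric instability and facial anomalies).

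After ZBTB24 knockdown, 3 chromosome 19 ZNF genes rose past the threshold, a q under 0.05 in the authors' deposited table. They were ZNF234, ZNF302 and ZNF776, each a KRAB zinc finger gene. The 250 bases before their annotated starts are shown because these are the only members past a threshold in any replicated comparison. The sequences run 5′ to 3′ on the strand of the gene, from RefSeq on GRCh38.p14, with CpG dinucleotides, the sites of DNA methylation, in capitals. The windows are chr19:44141304-44141553 on the plus strand for ZNF234, chr19:34677428-34677677 on the plus strand for ZNF302 and chr19:57746565-57746814 on the plus strand for ZNF776.
ZNF234: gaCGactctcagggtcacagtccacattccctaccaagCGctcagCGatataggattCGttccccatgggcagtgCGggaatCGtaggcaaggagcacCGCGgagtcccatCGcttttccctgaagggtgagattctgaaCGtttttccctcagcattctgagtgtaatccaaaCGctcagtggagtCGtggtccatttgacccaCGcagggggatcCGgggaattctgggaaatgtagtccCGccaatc
ZNF302: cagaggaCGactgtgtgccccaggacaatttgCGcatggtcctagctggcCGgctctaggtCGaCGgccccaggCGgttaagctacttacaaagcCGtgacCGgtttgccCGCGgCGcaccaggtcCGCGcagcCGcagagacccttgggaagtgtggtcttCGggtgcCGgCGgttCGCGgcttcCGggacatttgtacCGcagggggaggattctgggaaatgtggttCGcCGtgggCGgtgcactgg
ZNF776: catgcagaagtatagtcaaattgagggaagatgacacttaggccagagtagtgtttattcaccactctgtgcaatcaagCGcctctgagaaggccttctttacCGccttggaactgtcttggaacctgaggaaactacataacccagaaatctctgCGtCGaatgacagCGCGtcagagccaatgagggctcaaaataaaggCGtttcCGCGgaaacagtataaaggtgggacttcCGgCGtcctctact
These stretches hold 15 CpG in ZNF234, 24 in ZNF302 and 11 in ZNF776. In the 300-base promoters of RefSeq, which reach 50 bases past the start, the median was 20.5 CpG (range 3 to 35) over 100 promoters of the 85 members that could be matched by symbol. It was 20 over 274 promoters of all chromosome 19 ZNF genes, 19 over 1917 promoters of the chromosome and 14 over 35116 promoters of the genome.

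ZNF234 stood at 2.36 FPKM in shZBTB24 cells, against 0.461 FPKM in shNT cells in the authors' deposited table (a log2 fold change of 2.36, q = 0.00493). It lies on chromosome 19 from 44645710 to 44664462 (hg19, plus strand), in the cluster that also holds ZNF45, ZNF155, ZNF224 and ZNF227. ZNF302 stood at 4.09 FPKM in shZBTB24 cells, against 1.70 FPKM in shNT cells in the authors' deposited table (a log2 fold change of 1.27, q = 0.00493). ZNF776 stood at 6.47 FPKM in shZBTB24 cells, against 3.39 FPKM in shNT cells in the authors' deposited table (a log2 fold change of 0.93, q = 0.0206). ZNF302 spans 35168544 to 35177302 and ZNF776 spans 58258164 to 58269527, both on the plus strand of chromosome 19 in hg19. The 3 genes thus lay in 3 different clusters, and ZNF234 had the largest fold, 5.13, and the lowest shNT level of the 3.

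These 3 were of 35 chromosome 19 ZNF loci listed for the knockdown, which cover 36 of the genes. Over the whole table, 12.2% of listed loci rose past the threshold, against 8.57% of the chromosome 19 ZNF loci. None of the 35 fell past the threshold, where 9.82% of all listed loci did, while 2 had lower values at an unadjusted p under 0.05 in the authors' deposited table, which has the columns that Cufflinks writes. The direction of the listed values was lopsided. Higher values in shZBTB24 cells were given for 33 of the 35 loci (94.3%), beside 55.0% of all 1965 listed loci. Of 42 listed ZNF loci on other chromosomes 32 had higher values (76.2%), and of 119 other listed loci of chromosome 19 only 33 had (27.7%). The median log2 fold change was 0.86 over the chromosome 19 ZNF loci, 0.75 over ZNF loci elsewhere, -0.63 over the other chromosome 19 loci and 0.55 over all listed loci. Only absolute log2 fold changes above 0.50 are listed, so none of these medians could lie near 0, and their signs show only which side holds more loci. These counts describe listed loci, nearly all of which had a p under 0.05, and no test was made of the difference in direction.

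**Figure D1:**
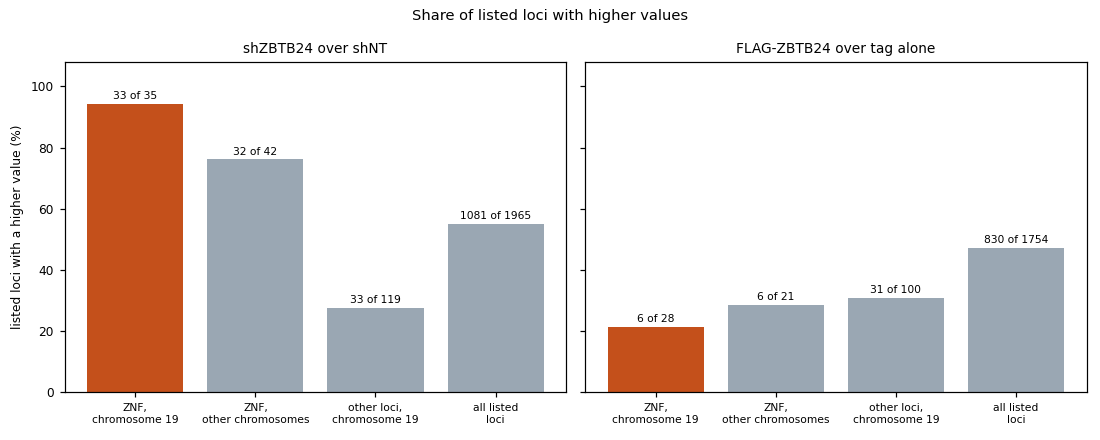
Bars give the share (%) of listed loci whose pooled FPKM was higher in shZBTB24 than in shNT cells (left) and higher in FLAG-ZBTB24 than in tag-alone lines (right), for 4 sets of loci, with the counts above each bar. The chromosome 19 ZNF bar is at 33 of 35 on the left and at 6 of 28 on the right.

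Expression of the listed ZNF genes was low. The 35 loci ranged from 0.909 to 13.7 FPKM in shZBTB24 cells and from 0.283 to 20.7 FPKM in shNT cells, with medians of 2.70 FPKM in shZBTB24 and 1.47 FPKM in shNT cells. Low expression moved with membership, so the direction was also counted among loci under 10 FPKM in both groups, where 31 of 32 chromosome 19 ZNF loci, 12 of 46 other loci of the chromosome and 469 of 924 loci of the whole table had higher values in shZBTB24 cells. The share of higher values among the ZNF loci was 96.9% in that range.

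**Figure D2:**
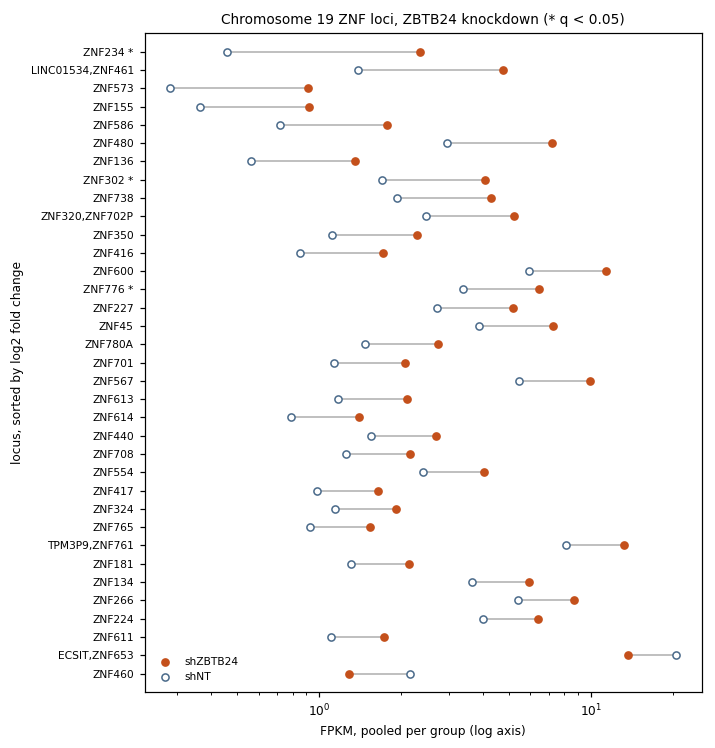
Pooled FPKM (log axis) of the 35 chromosome 19 ZNF loci listed for the knockdown, with filled points for shZBTB24 and open points for shNT cells, sorted by log2 fold change. The filled point lies to the right for 33 loci and to the left for ZNF460 and the ECSIT,ZNF653 locus, and asterisks mark the 3 loci with q under 0.05.

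The other listed loci did not pass the threshold, and their values are given as a description. The locus of ZNF461 and the non-coding LINC01534 stood at 4.74 FPKM in shZBTB24 and 1.39 FPKM in shNT cells in the authors' deposited table (a log2 fold change of 1.76, q = 0.0867), and reads of its genes cannot be told apart. ZNF586 was at 1.78 FPKM in shZBTB24 and 0.720 FPKM in shNT cells (a log2 fold change of 1.31, q = 0.0749) and ZNF480 at 7.22 FPKM in shZBTB24 and 2.96 FPKM in shNT cells (1.29, q = 0.265) in the authors' deposited table. ZNF136 was at 1.36 FPKM in shZBTB24 and 0.561 FPKM in shNT cells in the authors' deposited table (a log2 fold change of 1.27, q = 0.0719). All 4 were more than doubled in level without passing, and in all 12 of the 35 loci differed by at least 2-fold. ZNF738 had 4.30 FPKM in shZBTB24 and 1.94 FPKM in shNT cells (a log2 fold change of 1.15, q = 0.351), and the locus of ZNF320 and the pseudogene ZNF702P had 5.23 FPKM in shZBTB24 and 2.47 FPKM in shNT cells (1.08, q = 0.0544) in the authors' deposited table. ZNF573 and ZNF155 had the lowest levels, with 0.909 FPKM in shZBTB24 and 0.283 FPKM in shNT cells for ZNF573 and 0.919 FPKM in shZBTB24 and 0.365 FPKM in shNT cells for ZNF155 in the authors' deposited table. Paralogs of one cluster can share reads, and the split of such reads between them is uncertain for every gene named here.

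Members with a described function were among those that did not pass. ZNF350, a BRCA1-binding repressor also called ZBRK1, was at 2.29 FPKM in shZBTB24 and 1.11 FPKM in shNT cells in the authors' deposited table (a log2 fold change of 1.04, q = 0.119). ZNF224, a KRAB repressor of the aldolase A gene, was at 6.40 FPKM in shZBTB24 and 4.01 FPKM in shNT cells in the authors' deposited table (a log2 fold change of 0.67, q = 0.189). The highest shNT levels belonged to the loci of ZNF653 with its neighbour ECSIT, of ZNF761 with the pseudogene TPM3P9, and of ZNF600. The ECSIT,ZNF653 locus was at 13.7 FPKM in shZBTB24 and 20.7 FPKM in shNT cells in the authors' deposited table (a log2 fold change of -0.59, q = 0.204), the smallest absolute fold change of the 35. ECSIT encodes a mitochondrial complex I assembly factor, so this lower value may belong to either gene and cannot be assigned. TPM3P9,ZNF761 was at 13.2 FPKM in shZBTB24 and 8.09 FPKM in shNT cells (a log2 fold change of 0.71, q = 0.123) and ZNF600 at 11.4 FPKM in shZBTB24 and 5.94 FPKM in shNT cells (0.94, q = 0.0749) in the authors' deposited table. ZNF460 was the other locus with a lower value, 1.29 FPKM in shZBTB24 and 2.16 FPKM in shNT cells in the authors' deposited table (a log2 fold change of -0.74, q = 0.257).

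In the lines with added FLAG-ZBTB24, most listed chromosome 19 ZNF loci had lower values than in the lines with the tag alone, and none passed the threshold. Of 28 loci 22 had lower and 6 had higher values in FLAG-ZBTB24 lines (21.4% higher, beside 47.3% of all 1754 listed loci). Of ZNF loci elsewhere 6 of 21 had higher values, and of the other chromosome 19 loci 31 of 100, so lower values also prevailed in both of these sets. At q under 0.05, 0.228% of listed loci rose and 0.342% fell, and of the ZNF loci 0 rose and 0 fell. At an unadjusted p under 0.05 in the authors' deposited table, with the columns that Cufflinks writes, 3 of the 28 were lower (10.7%, beside 6.44% of all listed loci) and 0 were higher. The median log2 fold change was -0.59 over these loci, -0.61 over 21 ZNF loci of other chromosomes, -0.60 over 100 other loci of chromosome 19 and -0.51 over the whole table. Only absolute log2 fold changes above 0.50 are listed, so none of these medians could lie near 0. The sign of each shows only which side holds more loci, and over all loci under 10 FPKM in both groups the median was 0.54. Among loci under 10 FPKM in both groups, 6 of 24 chromosome 19 ZNF loci, 28 of 68 other loci of the chromosome and 669 of all 1203 loci had higher values in FLAG-ZBTB24 lines. The values ranged from 0.255 to 42.4 FPKM in FLAG-ZBTB24 lines and from 0.313 to 62.0 FPKM in tag-alone lines, and 8 loci differed by at least 2-fold.

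The 4 largest differences lay among genes under 5 FPKM in both groups. The pseudogene ZNF724P was at 0.463 FPKM in FLAG-ZBTB24 and 2.75 FPKM in tag-alone lines in the authors' deposited table (a log2 fold change of -2.57, p = 0.0582, q = 0.622). ZNF675, an inhibitor of TRAF6 signalling also called TIZ, was at 0.955 FPKM in FLAG-ZBTB24 and 4.60 FPKM in tag-alone lines in the authors' deposited table (a log2 fold change of -2.27, p = 0.047, q = 0.564). ZNF91, a KRAB repressor of SVA retrotransposons, was at 0.255 FPKM in FLAG-ZBTB24 and 1.18 FPKM in tag-alone lines in the authors' deposited table (a log2 fold change of -2.21, p = 0.193, q = 0.967). These 3 are neighbours in the cluster next to the centromere. ZNF585B had the smallest p of the 28, at 0.486 FPKM in FLAG-ZBTB24 and 2.21 FPKM in tag-alone lines in the authors' deposited table (a log2 fold change of -2.19, p = 0.00985, q = 0.367). ZNF493, the other locus with a p under 0.05, was at 0.300 FPKM in FLAG-ZBTB24 and 0.786 FPKM in tag-alone lines in the authors' deposited table (a log2 fold change of -1.39, p = 0.0462, q = 0.564). ZNF136, ZNF615 and ZNF564 followed, with log2 fold changes of -1.23, -1.22 and -0.90 in the authors' deposited table.

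At the upper end of expression the differences were near the median of the 28 loci, a log2 fold change of -0.59. ZNF146, made almost only of zinc fingers and without a KRAB domain, was at 42.4 FPKM in FLAG-ZBTB24 and 62.0 FPKM in tag-alone lines in the authors' deposited table (a log2 fold change of -0.55). ZNF581 had 16.4 FPKM in FLAG-ZBTB24 and 24.8 FPKM in tag-alone lines, and ZNF544 had 16.5 FPKM in FLAG-ZBTB24 and 24.7 FPKM in tag-alone lines, in the authors' deposited table (a log2 fold change of -0.59 for both). The 6 loci with higher values were ZFP30,ZNF571 (a log2 fold change of 1.11), ZNF814 (0.95), ZNF550 (0.86), ZNF554 (0.76), ZNF333 (0.57) and ZNF441 (0.51), the last with 0.821 FPKM in FLAG-ZBTB24 and 0.577 FPKM in tag-alone lines in the authors' deposited table and the smallest absolute fold change of the 28. Their q ranged up to 0.997.

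**Figure D3:**
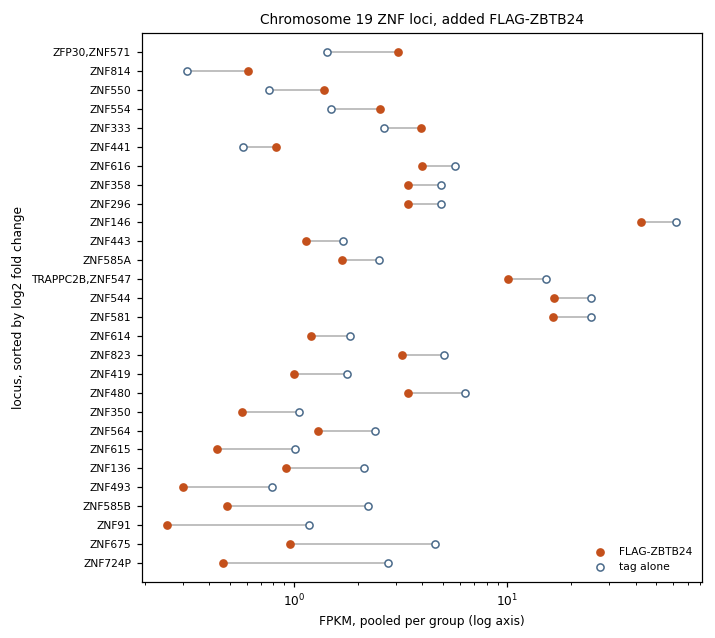
Pooled FPKM (log axis) of the 28 chromosome 19 ZNF loci listed for added FLAG-ZBTB24, with filled points for FLAG-ZBTB24 and open points for tag-alone lines, sorted by log2 fold change. The filled point lies to the left for 22 loci, with the widest gaps at ZNF724P, ZNF675, ZNF91 and ZNF585B, and no locus passed q under 0.05.

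Of the 102 genes, 5 were listed in both the knockdown and the FLAG-ZBTB24 table, 13.9% of the 36 genes of the knockdown and 17.9% of the 28 genes of FLAG-ZBTB24. Over all gene symbols, 403 were in both tables, 19.02% of the 2119 of the knockdown and 21.2% of the 1897 of FLAG-ZBTB24, and 56.6% of these had values on opposite sides. ZNF136, ZNF350, ZNF480 and ZNF614 had higher values in shZBTB24 cells and lower values in FLAG-ZBTB24 lines. Of the 36 genes of the knockdown 34 had higher values, and of the 28 of FLAG-ZBTB24 22 had lower values. Opposite sides were thus likely for any shared member, and 5 genes are too few to set beside the 56.6%. ZNF350 was at 0.570 FPKM in FLAG-ZBTB24 and 1.05 FPKM in tag-alone lines, and ZNF480 at 3.43 FPKM in FLAG-ZBTB24 and 6.35 FPKM in tag-alone lines, in the authors' deposited table (a log2 fold change of -0.89 for both). ZNF136 was at 0.913 FPKM in FLAG-ZBTB24 and 2.14 FPKM in tag-alone lines, and ZNF614 at 1.21 FPKM in FLAG-ZBTB24 and 1.83 FPKM in tag-alone lines, in the authors' deposited table. ZNF554 had higher values in both tables, with 2.53 FPKM in FLAG-ZBTB24 and 1.49 FPKM in tag-alone lines and 4.05 FPKM in shZBTB24 and 2.41 FPKM in shNT cells in the authors' deposited table. None of these 5 passed the threshold in either table.

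The DNMT3B knockout table compares 1 library with 1 library, so it gives no test of the condition, and values are given as a description of these libraries. It lists loci with an absolute log2 fold change of at least 1 and, under the label of the knockout, only loci with higher values. Of these, 35 were chromosome 19 ZNF loci (36 genes), and 15 had a log2 fold change of at least 2 (42.9%, beside 52.8% of all 2243 loci of that label). Their median log2 fold change was 1.68, against 2.19 over 128 other loci of chromosome 19, 1.77 over 24 ZNF loci elsewhere and 2.12 over all loci of the label. The share past the fold and the median were thus not above those of the table.

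Several of these ZNF genes were close to 0 in wild-type cells. ZNF260, whose protein has C2H2 fingers and no KRAB domain, was at 5.68 FPKM in the DNMT3B knockout and 0.0110 FPKM in wild type in the authors' deposited table (a log2 fold change of 9.01). ZNF841 was at 3.74 FPKM in the knockout and 0.0154 FPKM in wild type, and ZNF432 at 2.71 FPKM in the knockout and 0.0237 FPKM in wild type, in the authors' deposited table. ZNF529 was at 2.51 FPKM in the knockout and 0.0226 FPKM in wild type, and ZNF569 at 1.93 FPKM in the knockout and 0.0343 FPKM in wild type, in the authors' deposited table. In all 6 of the 35 loci were under 0.05 FPKM in wild type and 21 were under 1 FPKM, so the size of these folds depends on wild-type values near 0. ZNF814 reached the highest level of the 35, 16.2 FPKM in the knockout and 0.223 FPKM in wild type in the authors' deposited table (a log2 fold change of 6.18). ZNF772 was at 2.88 FPKM in the knockout and 0.144 FPKM in wild type, and ZNF550 at 4.53 FPKM in the knockout and 0.742 FPKM in wild type, in the authors' deposited table.

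The 3 highest wild-type levels belonged to ZNF296, ZNF134 and ZNF274. ZNF274, a KRAB protein that binds the 3′ ends of other ZNF genes and recruits SETDB1 there, was at 13.2 FPKM in the knockout and 4.20 FPKM in wild type in the authors' deposited table (a log2 fold change of 1.65). ZNF296, known in the mouse as a partner of pluripotency factors, was at 12.6 FPKM in the knockout and 5.24 FPKM in wild type in the authors' deposited table (a log2 fold change of 1.27). ZNF134 was at 9.07 FPKM in the knockout and 4.27 FPKM in wild type, and ZNF490, the locus nearest the limit of the list, at 1.77 FPKM in the knockout and 0.864 FPKM in wild type, in the authors' deposited table.

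The same table holds 1112 loci under a second label, DNMT3BKOshZB. That label fits none of the samples analysed here, its loci all have lower values than wild type, and no locus of the table stands under both labels. Whether it names a further sample or holds the lower values of the DNMT3B knockout library itself cannot be told apart from these files, so the values below are given under the label alone. They include 24 chromosome 19 ZNF loci (27 genes). Of these, 13 had a log2 fold change of at most -2 (54.2%, beside 26.6% of all loci of the label). The median wild-type level was 2.80 FPKM over the 24 loci and 10.6 FPKM over all loci of the label. Among loci under 10 FPKM in both groups, 12 of 23 chromosome 19 ZNF loci had a fold change that low. So did 194 of 545 loci of the label and 8 of 31 other loci of chromosome 19. In that range the share over the label was thus higher, and its median log2 fold change was -1.67. ZNF83 was at 0.0226 FPKM under the label and 17.0 FPKM in wild type in the authors' deposited table (a log2 fold change of -9.56), the highest wild-type level of the 24. ZNF100 was at 0.0123 FPKM under the label and 2.65 FPKM in wild type, and ZNF91 at 0.0108 FPKM under the label and 1.74 FPKM in wild type, in the authors' deposited table. ZNF738 was at 0.141 FPKM under the label and 5.97 FPKM in wild type, and ZNF700 at 0.692 FPKM under the label and 7.41 FPKM in wild type, in the authors' deposited table. ZNF136 (a log2 fold change of -3.13), ZNF607 (-3.09) and ZNF440 (-2.53) were the others of the 8 largest in the authors' deposited table. ZNF558 was at 3.53 FPKM under the label and 8.77 FPKM in wild type, and ZNF77, nearest the limit of the list, at 2.89 FPKM under the label and 5.93 FPKM in wild type, in the authors' deposited table. The median log2 fold change was -2.01 over the 24 loci, against -1.55 over 59 other loci of chromosome 19, -1.45 over 13 ZNF loci elsewhere and -1.48 over the label. Both labels use the same wild-type library, so their values were not compared with each other.

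**Figure D4:**
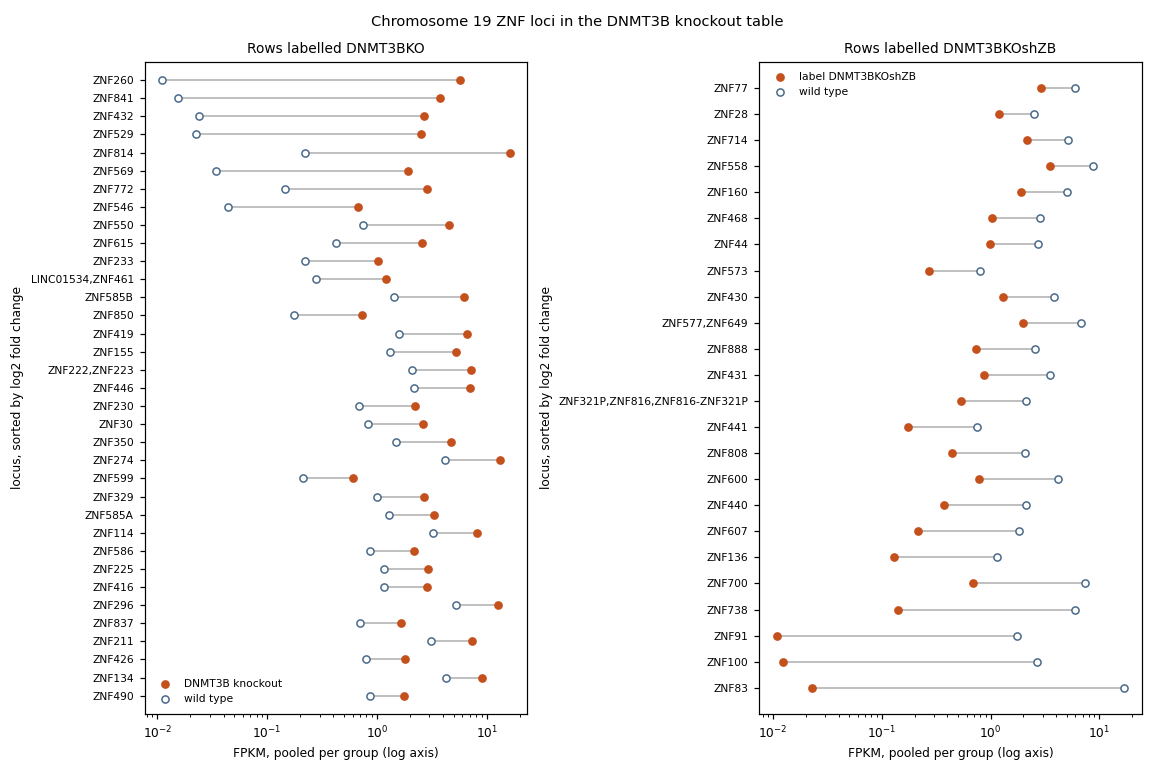
Pooled FPKM (log axis) of the 35 chromosome 19 ZNF loci under the DNMT3B knockout label (left) and of the 24 under the label DNMT3BKOshZB (right), filled, with the wild-type library as open points. Wild-type values of 6 loci on the left and label values of 3 loci on the right lie under 0.05 FPKM.

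Along the chromosome, the 267 ZNF genes fell into 16 runs when split where starts lay more than 1 Mb apart, and listed members of one label often stood together. The run from 52074531 to 54083523 (hg19) holds 47 ZNF genes and 26 of the members. In this run 11 genes had higher values in shZBTB24 cells and 0 lower, 5 were lower in FLAG-ZBTB24 lines and 0 higher, 4 were listed under the DNMT3B knockout and 12 under the label DNMT3BKOshZB. The counts along the chromosome are of genes, not loci. Genes listed as one locus, such as ZNF320 with ZNF702P and ZNF577 with ZNF649, share a single value and add to the grouping. Between ZNF320 and ZNF702P lie ZNF888, ZNF321P and ZNF816, which are listed as other loci. The terminal run, from 55987699 to 59000900, holds 62 ZNF genes and 19 members, of which 12 were listed under the DNMT3B knockout and 0 under DNMT3BKOshZB. In the run beside the centromere, from 19778962 to 24312769, this was turned round, with 0 of its 10 members listed under the DNMT3B knockout and 6 under DNMT3BKOshZB. Read in order, the 63 members of the knockout table formed 12 blocks of one label. Because one label holds only higher and the other only lower values, runs of 2 labels and runs of higher and lower genes in a single comparison cannot be told apart. Among the blocks were 4 DNMT3B knockout genes from ZNF350 to ZNF841 (52467593 to 52599018), followed by 10 DNMT3BKOshZB genes from ZNF808 to ZNF160 (53030909 to 53606687). Of these 10, ZNF321P, ZNF816 and ZNF816-ZNF321P are 1 locus with 1 value. Tandem copies share sequence and reads, and the order was not tested against chance.

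**Figure D5:**
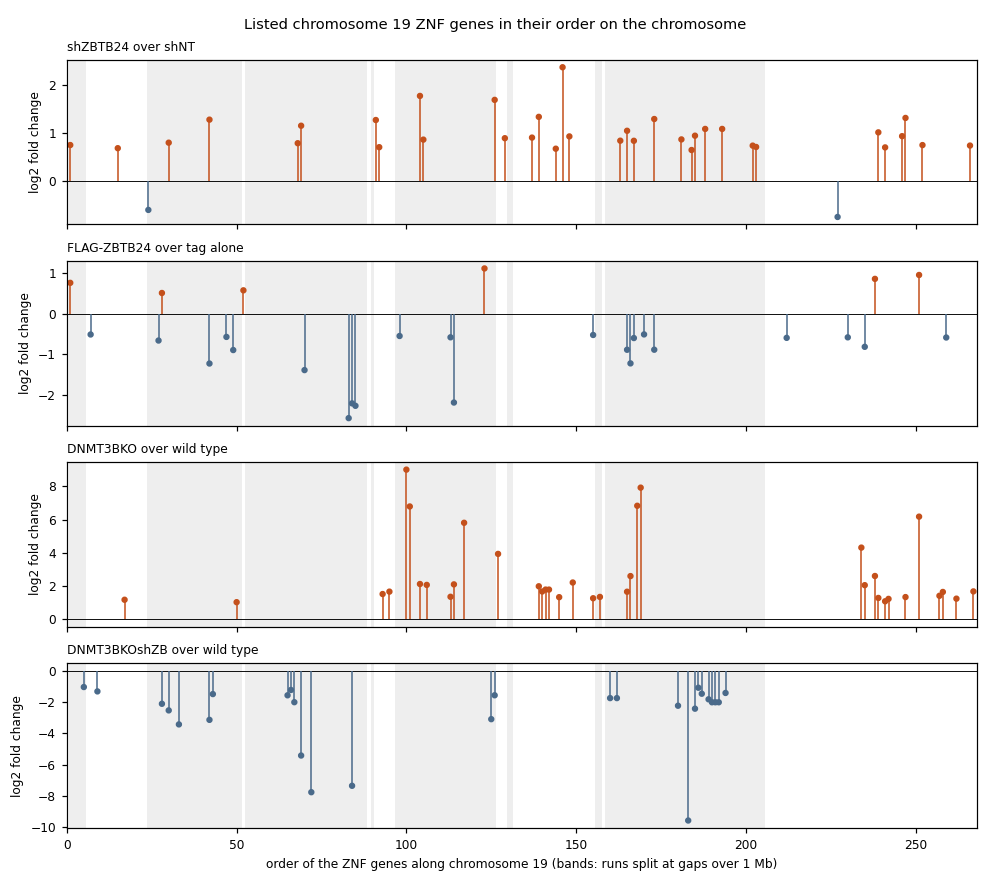
Log2 fold change of each listed chromosome 19 ZNF gene against its rank among the 267 ZNF genes along the chromosome, in 1 panel per label, with alternating bands for the 16 runs. Points of the lower panels change between the DNMT3B knockout label (higher values only) and the DNMT3BKOshZB label (lower values only) in 12 blocks, while shZBTB24 points lie above 0 for 34 of 36 genes.

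Few members carried a peak of either factor. A DNMT3B peak overlapped 6 of the 102 genes (5.88%), beside 17 of all 267 chromosome 19 ZNF genes (6.37%), 79 of 299 ZNF genes elsewhere (26.4%), 267 of 1714 genes of the chromosome (15.6%) and 6405 of 26313 genes in all (24.3%). The 6 were ZNF333, ZNF45, ZNF653, ZNF431, ZNF430 and ZNF83, and the midpoint of each peak lay in an intron. The highest scores, as the authors gave them, were 3.40 in ZNF333 (14806726 to 14809006), 3.31 in ZNF45 (44431765 to 44437056) and 3.30 in ZNF653 (11603767 to 11605339), where the median of the list was 3.39. Coverage was largest in ZNF45, where the peak spans 23.4% of the gene. By label, a DNMT3B peak overlapped 0 of 36 genes under the DNMT3B knockout and 3 of 27 under DNMT3BKOshZB. For the knockdown it was 1 of 34 higher and 1 of 2 lower genes, and for FLAG-ZBTB24 1 of 6 higher and 0 of 22 lower genes. With 6.37% of all chromosome 19 ZNF genes overlapping a peak, these counts are too small to set the labels apart. The share over all genes of each label was not counted.

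A ZBTB24 peak lay within 1000 bp of a transcript start in 4 of the 102 genes (3.92%), beside 7 of the 267 (2.62%) and 989 of all genes (3.76%). They were ZNF100 (21950535 to 21950693, 184 bp before the start), ZNF181 (35224821 to 35225049, 545 bp before), ZNF440 (11924797 to 11925061, 178 bp before) and ZNF443 (12552064 to 12552260, 236 bp before), all in hg19. Their scores in the authors' list were 9.81 for ZNF100, 9.18 for ZNF181, 8.89 for ZNF440 and 6.96 for ZNF443, where the median of the list was 8.26 and its highest score 55.4. The 250 bases before the RefSeq starts of ZNF100, ZNF440 and ZNF443 are shown because the midpoints of their peaks lay within that distance of the annotated starts on hg19. The RefSeq starts may differ from those starts and no coordinates were converted, so the stretches need not hold the peak midpoints. The sequences come from RefSeq on GRCh38.p14, 5′ to 3′ on the strand of the gene, with CpG in capitals. The windows are chr19:21767580-21767829 on the minus strand for ZNF100, chr19:11814023-11814272 on the plus strand for ZNF440 and chr19:12441022-12441271 on the minus strand for ZNF443.
ZNF100: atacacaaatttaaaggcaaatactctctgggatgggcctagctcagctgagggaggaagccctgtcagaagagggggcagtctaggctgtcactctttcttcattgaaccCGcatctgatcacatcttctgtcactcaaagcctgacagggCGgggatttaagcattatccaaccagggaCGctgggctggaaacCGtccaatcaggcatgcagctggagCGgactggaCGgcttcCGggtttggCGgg
ZNF440: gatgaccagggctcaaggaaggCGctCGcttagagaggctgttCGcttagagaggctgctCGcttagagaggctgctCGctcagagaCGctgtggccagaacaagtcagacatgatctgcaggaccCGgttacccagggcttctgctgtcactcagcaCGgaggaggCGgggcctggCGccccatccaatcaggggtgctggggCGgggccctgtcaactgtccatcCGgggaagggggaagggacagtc
ZNF443: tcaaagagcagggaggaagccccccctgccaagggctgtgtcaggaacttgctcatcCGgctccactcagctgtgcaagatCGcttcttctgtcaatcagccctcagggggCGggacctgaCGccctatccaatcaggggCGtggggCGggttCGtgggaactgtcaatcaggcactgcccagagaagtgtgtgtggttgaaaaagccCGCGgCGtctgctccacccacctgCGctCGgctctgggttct
These 3 stretches hold 8 CpG in ZNF100, 12 in ZNF440 and 12 in ZNF443. Of the genes with a ZBTB24 peak at a start, ZNF440 was at 2.70 FPKM in shZBTB24 and 1.55 FPKM in shNT cells (a log2 fold change of 0.80, q = 0.123) and ZNF181 at 2.15 FPKM in shZBTB24 and 1.32 FPKM in shNT cells (0.70, q = 0.298) in the authors' deposited table. ZNF443 was at 1.14 FPKM in FLAG-ZBTB24 and 1.69 FPKM in tag-alone lines in the authors' deposited table (a log2 fold change of -0.57). None of ZNF234, ZNF302 and ZNF776 had a peak of either factor by these rules, and few of the 102 members did.

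The motif CAGGACCT, reported for ZBTB24, was searched on both strands, its other strand being AGGTCCTG. It was found in 3 of the 100 promoters of members (3.00%), beside 2.92% of 274 promoters of chromosome 19 ZNF genes, 1.31% of 306 promoters of ZNF genes elsewhere, 1.93% of the 1917 promoters of the chromosome and 1.56% of the 35116 promoters of all genes. The matches, in capitals, are shown with up to 20 bases to each side, from RefSeq on GRCh38.p14. They start 233 bases before the start of ZNF160 (window chr19:53087243-53087287), 241 before that of ZNF569 (chr19:37467658-37467694) and 70 before that of ZNF675 (chr19:23687255-23687302), all 3 genes on the minus strand.
ZNF160: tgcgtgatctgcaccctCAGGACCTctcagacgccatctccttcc
ZNF569: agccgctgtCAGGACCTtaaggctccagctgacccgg
ZNF675: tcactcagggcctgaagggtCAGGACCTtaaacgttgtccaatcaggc
None of these 3 genes had a ZBTB24 peak within 1000 bp of a start, where 4 of the 102 members did. None was listed for the knockdown, where 36 of the 102 were, and 3 genes are too few to set against these shares.

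A list of chromatin genes held the machinery that KRAB zinc finger proteins recruit and also other genes, such as ATRX, CDCA7, DNMT3B and ZBTB24. Of its 28 annotated names 12 were listed under some label (42.9%, beside 22.9% of all gene names in the annotation). Among the 12 are ZBTB24, which was itself added, and DNMT3B, the target of the knockout, so this share was partly set by the design. With the knockdown none passed the threshold. The knockdown table held 5 of them (17.9%, beside 8.04% of all gene names), with 0 past q under 0.05 and all 5 at an unadjusted p under 0.05 in the authors' deposited table, which has the columns that Cufflinks writes. TRIM28, the corepressor that binds the KRAB domain, was at 71.4 FPKM in shZBTB24 and 107.6 FPKM in shNT cells in the authors' deposited table (a log2 fold change of -0.59, q = 0.135). MPHOSPH8 (a log2 fold change of 0.68), ATRX (0.61), CBX1 (0.54) and CBX3 (0.51), which read or maintain repressive chromatin, had higher values in shZBTB24 cells in the authors' deposited table. With FLAG-ZBTB24 the locus of ZBTB24 and its neighbour MICAL1 rose, at 155 FPKM in FLAG-ZBTB24 and 17.8 FPKM in tag-alone lines in the authors' deposited table (a log2 fold change of 3.12, q = 0.0192), and the CBX5 locus was at 41.9 FPKM in FLAG-ZBTB24 and 29.3 FPKM in tag-alone lines. The methyltransferase DNMT3A was at 8.47 FPKM in the DNMT3B knockout and 3.25 FPKM in wild type in the authors' deposited table. Under DNMT3BKOshZB, SUV39H1 (a log2 fold change of -1.17), CDCA7 (-1.47), DNMT1 (-1.55) and DNMT3B (-1.71) had lower values than wild type in the authors' deposited table. That label lists lower values only. The share of the 28 names listed was 14.3% under it, beside 4.50% of all gene names. For FLAG-ZBTB24 the share was 7.14%, beside 7.21%, and for the DNMT3B knockout 3.57%, beside 9.08%.

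The targeted genes could be checked only in part, since ZBTB24 was not listed for the knockdown. DNMT3B was not listed under the DNMT3B knockout label, which holds higher values only, and stood under DNMT3BKOshZB at 6.46 FPKM, against 21.1 FPKM in wild type in the authors' deposited table; whether that is the value of the knockout library cannot be told apart from these files. Of 10 colon epithelial markers 2 were listed for the knockdown, where CDX2 rose to 18.8 FPKM in shZBTB24 cells, against 6.90 FPKM in shNT cells (q = 0.00493), and CDH1 fell to 23.2 FPKM in shZBTB24 cells, against 46.3 FPKM in shNT cells (q = 0.00493), in the authors' deposited table. The 2 listed for the knockdown are 20%, beside 8.04% of all gene names. Under DNMT3BKOshZB, which lists lower values only, 5 of the 10 were listed (50%, beside 4.50% of all gene names). Among them was EPCAM at 76.6 FPKM under the label and 178.7 FPKM in wild type in the authors' deposited table. Added FLAG-ZBTB24 listed 2 of the 10 (20%, beside 7.21%), KRT20 (a log2 fold change of 1.44) and CDH1 (0.54), both with higher values. The DNMT3B knockout label, which lists higher values only, listed 1 (10%, beside 9.08%), KRT20 (a log2 fold change of 1.42). Leukocyte and endothelial markers were listed in none of the tables, and of 5 fibroblast markers PDGFRB alone was listed, at 0.964 FPKM in the DNMT3B knockout and 0.0718 FPKM in wild type in the authors' deposited table. The part of these marker changes in the ZNF values was not tested, and in such bulk libraries fewer cells that express a gene and less RNA per cell cannot be told apart.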

How the data were processed

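RNA was measured in 12 libraries and FLAG ChIP with input in 14, grouped by their titles. Per the submitters' processing notes, the tools were HISAT2, StringTie, MACS2 and Cufflinks on hg19. Versions were not given in the sources used here. For expression, the authors deposited 1 FPKM value per locus and group, pooled over libraries. Each deposited table also gives the log2 fold change of its second group over its first, the p-value and the q-value of each locus, and no counts, so depth is unknown and no test across libraries could be run. The authors deposited 1 merged peak list per factor with a score per peak, of a kind not stated. All 3 expression tables are partial. The knockdown table lists absolute log2 fold changes above 0.50 with p up to 0.0549, the FLAG-ZBTB24 table above 0.50 with p up to 0.839, and the knockout table from 1. No column was left unused (0).

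Members were found by gene name. A locus with several symbols counted once in counts of loci, while counts of genes took each of its ZNF symbols. A call was a q under 0.05, or, for 1 library against 1, an absolute log2 fold change of at least 2. Named are loci past the threshold, per table and direction the 8 with the largest fold change with 1 FPKM in either group, members under 3 labels, the 3 highest in the control and the one nearest the limit of each list, and members with a ZBTB24 peak at a start or the 3 highest DNMT3B scores. Others were chosen after their values were seen. ZBTB24 peaks were assigned by midpoint within 1000 bp of a start and DNMT3B peaks by an overlap of 1 bp. Promoters (RefSeq, GRCh38.p14) were matched by symbol, with no coordinates converted. The members and lists were chosen with earlier results of these data known. FPKM may not have been normalized together across tables. Scripts (Python 3.11.15, pandas 2.3.3, numpy 2.4.6, matplotlib 3.10.9) were tested on simulated data. Alternatives were thresholds, pseudocounts, a minimum FPKM, single-symbol loci, other gene names, and peak rules.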

Additional observations from a re-analysis of the deposited data

How the results depend on the processing

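Of 13 results under 50 alternative values, 32 stayed within the limits set for them, 18 moved and 0 changed direction. Counts have no direction to change, and a pseudocount cannot change the sign of a fold change. Each label of the knockout table holds values on 1 side only. The 0 is therefore no measure of how stable the directions are. In the knockdown table, the 3 chromosome 19 ZNF loci that rose became 10 at q under 0.10 and 33 at an unadjusted p under 0.05, and the 0 that fell became 2 at that p. With FLAG-ZBTB24, the 0 that fell became 3 at an unadjusted p under 0.05. In the DNMT3B knockout, the 15 loci with a log2 fold change of at least 2 became 8 at a limit of 3. Adding the loci of the label DNMT3BKOshZB with a log2 fold change of at most -2 gave 28, a count that mixes higher and lower values. Pseudocounts of 0.1 and 1 FPKM drew the medians toward 0 by construction. The median log2 fold change of 0.86 for the knockdown became 0.85 and 0.58, that of -0.59 for FLAG-ZBTB24 became -0.58 and -0.46, that of 1.68 for the DNMT3B knockout became 1.62 and 1.12, and that of -2.01 for DNMT3BKOshZB became -1.76 and -1.08. With loci of 1 symbol only, the FLAG-ZBTB24 median was -0.60 and the DNMT3BKOshZB median -2.05. The 6 members with a DNMT3B peak became 1 where at least 10% of the gene had to be covered, and 1 with peaks of the upper part of the scores. Chosen after seeing the data, loci of 1 symbol gave 30 higher values for the knockdown and 5 for FLAG-ZBTB24, and loci with at least 1 FPKM gave 31 and 4, beside 33 and 6.

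No paired analysis was possible because each group has 1 pooled value in the files, and leaving out each replicate was not run for the same reason. That absence also limits every value here, since the spread between libraries and the depth are unknown. Folds of loci under 0.05 FPKM depend on values near 0. Loci absent from a table cannot be placed.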

Other observations

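Other zinc finger names of chromosome 19 were listed too. ZFP30, a KRAB zinc finger gene outside the ZNF names, was at 0.944 FPKM in shZBTB24 and 0.434 FPKM in shNT cells in the authors' deposited table (a log2 fold change of 1.12, q = 0.135). Under the label DNMT3BKOshZB it was at 0.0681 FPKM, against 0.600 FPKM in wild type in the authors' deposited table (a log2 fold change of -3.14). ZFP36, whose CCCH fingers bind RNA and promote mRNA decay, was at 147.5 FPKM in shZBTB24 and 234.1 FPKM in shNT cells in the authors' deposited table (a log2 fold change of -0.67). It was at 16.4 FPKM in FLAG-ZBTB24 and 40.9 FPKM in tag-alone lines (a log2 fold change of -1.32, q = 0.259) and at 44.0 FPKM under DNMT3BKOshZB and 95.0 FPKM in wild type (-1.11) in the authors' deposited table. ZFP30 also shares a locus with ZNF571, at 3.09 FPKM in FLAG-ZBTB24 and 1.43 FPKM in tag-alone lines (a log2 fold change of 1.11) in the authors' deposited table. That value cannot be assigned to either gene. ZFP36 thus had lower values under all 3 labels that list it, while ZFP30 had values on both sides.

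Of the 102 genes, 79 stood under 1 label, 21 under 2 and 2 under 3, ZNF136 and ZNF350. The 23 under several labels were 22.5% of the members, beside 23.1% of all 6035 listed symbols, so this share was near that of the tables. The knockdown and the DNMT3B knockout shared 6 genes (ZNF134, ZNF155, ZNF350, ZNF416, ZNF461 and ZNF586), 16.7% of the 36 genes of each, all with higher values, where the knockout label lists no lower ones. Of the 36 genes of the knockdown 34 had higher values, so the shared direction was largely set on both sides. Over all symbols these tables shared 19.9% of those of the knockdown and 17.6% of those of the knockout, and 199 of the 422 shared had higher values in the knockdown. The knockdown and DNMT3BKOshZB shared 5 genes (ZNF136, ZNF440, ZNF573, ZNF600 and ZNF738), 13.9% of the 36 and 18.5% of the 27, where that label lists no higher ones. Over all symbols the shares were 10.2% and 18.3%. FLAG-ZBTB24 and the DNMT3B knockout shared 8, 28.6% of the 28 and 22.2% of the 36, of which ZNF550 and ZNF814 had higher values in both and 6 had lower values in FLAG-ZBTB24 lines. Over all symbols the shares were 22.8% and 18.1%, and 215 of the 432 shared had lower values in FLAG-ZBTB24 lines. Of the 28 member genes of FLAG-ZBTB24, 22 had lower values, so the direction of the 8 was largely set too.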
